A study of Vitis vinifera with 66 samples.

Results

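The 4 genes described here, VIT_18s0076g00340, VIT_18s0001g10500, VIT_02s0087g00710 and VIT_03s0063g00380, encode abscisic acid 8'-hydroxylases of the CYP707A family of cytochrome P450 enzymes. They were taken by their gene IDs from a table of 29688 rows, and all 4 were among the 19625 rows that passed the filter on low counts, which asked for at least 0.5 CPM (counts scaled to the library size) in at least 3 libraries. VIT_18s0076g00340 is the member that the study names CYP707A3, and the other 3 are given by ID because no member name was at hand for them. The study counts further CYP707A genes in grapevine, which were not analysed here.

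Abscisic acid is a hormone that rises in the grape berry around véraison, the onset of ripening, and in many plant tissues under water deficit. It is made from carotenoid precursors by a pathway whose limiting step is 9-cis-epoxycarotenoid dioxygenase (NCED). CYP707A enzymes start the main route of its breakdown by hydroxylating it at the 8' position, and the product turns into phaseic acid. The families act on the hormone from opposite sides, so the transcripts of both were followed. Transcript levels are not enzyme activities, and the hormone contents measured in the study were not analysed here.

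RNA came from berries of potted Sauvignon Blanc vines, all of a single clone on a single rootstock, in 22 groups of 3 libraries, 66 in all. Control berries (C) came from vines that were never stressed. F vines had been flooded in spring around bud break, which the series' design text places before it and the study's methods approximately at it. H vines were brought in summer to drought at 30% of field capacity. They were then given a heatwave with the thermostat set 5 °C above the control tunnel. FH vines had the spring flooding and both summer stresses. Sampling took place at T0 to T5, which were 46, 55, 59, 61, 70 and 74 days after anthesis. T0 preceded the cut in irrigation and exists for C and F alone, T1 was drought without heat, T2 and T3 were the middle and the end of the heatwave, T4 followed a recovery and T5 was harvest. The H and FH vines stood in another tunnel than the C and F vines, so summer stress and tunnel cannot be told apart. The study's methods describe berries of separate vines kept apart as biological replicates, while the labels give each library a replicate number without naming its vine.

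Library totals ranged from 15927671 to 24150978 counts, with a median of 19168492. Libraries 1 and 2 of F at T5 were the closest replicate pair. Their chi-square over all rows, divided by its degrees of freedom, was 1.87 against 8.95 for the next closest pair, which is still above counting noise. They were kept as separate libraries, though this value does not show that they came from separate vines. Library 2 of FH at T4 stood far from its replicates, with values of 282 and 293 on that measure, and is named below where a value rests on it. The first principal component of the 5000 most variable rows carried 52.4% of the variance and ran from T0 (scores of -96.6 to -84.7) to harvest (22.4 to 42.8). Scores of successive time points overlapped from T1 on, and the component was built from all treatments, so stress can enter it. Its score serves below only as a rough place along ripening. Levels are CPM on library sizes scaled by the trimmed mean of M values, and they are not corrected for transcript length, so no gene is compared with another by level. In these bulk samples fewer cells of a type and less RNA per cell cannot be told apart.

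The 4 genes followed different courses over ripening. CYP707A3 had its lowest medians at T0 and T1 and its highest at T3, VIT_18s0001g10500 and VIT_03s0063g00380 were highest at T0 and close to 0 at harvest, and VIT_02s0087g00710 had its highest libraries at T0, 1 in C and 1 in F, and no library above 8.88 CPM later. The count for VIT_18s0001g10500 was 0 in 13 of 66 libraries and that for VIT_03s0063g00380 in 24, and the other genes had counts in every library.

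**Figure D1:**
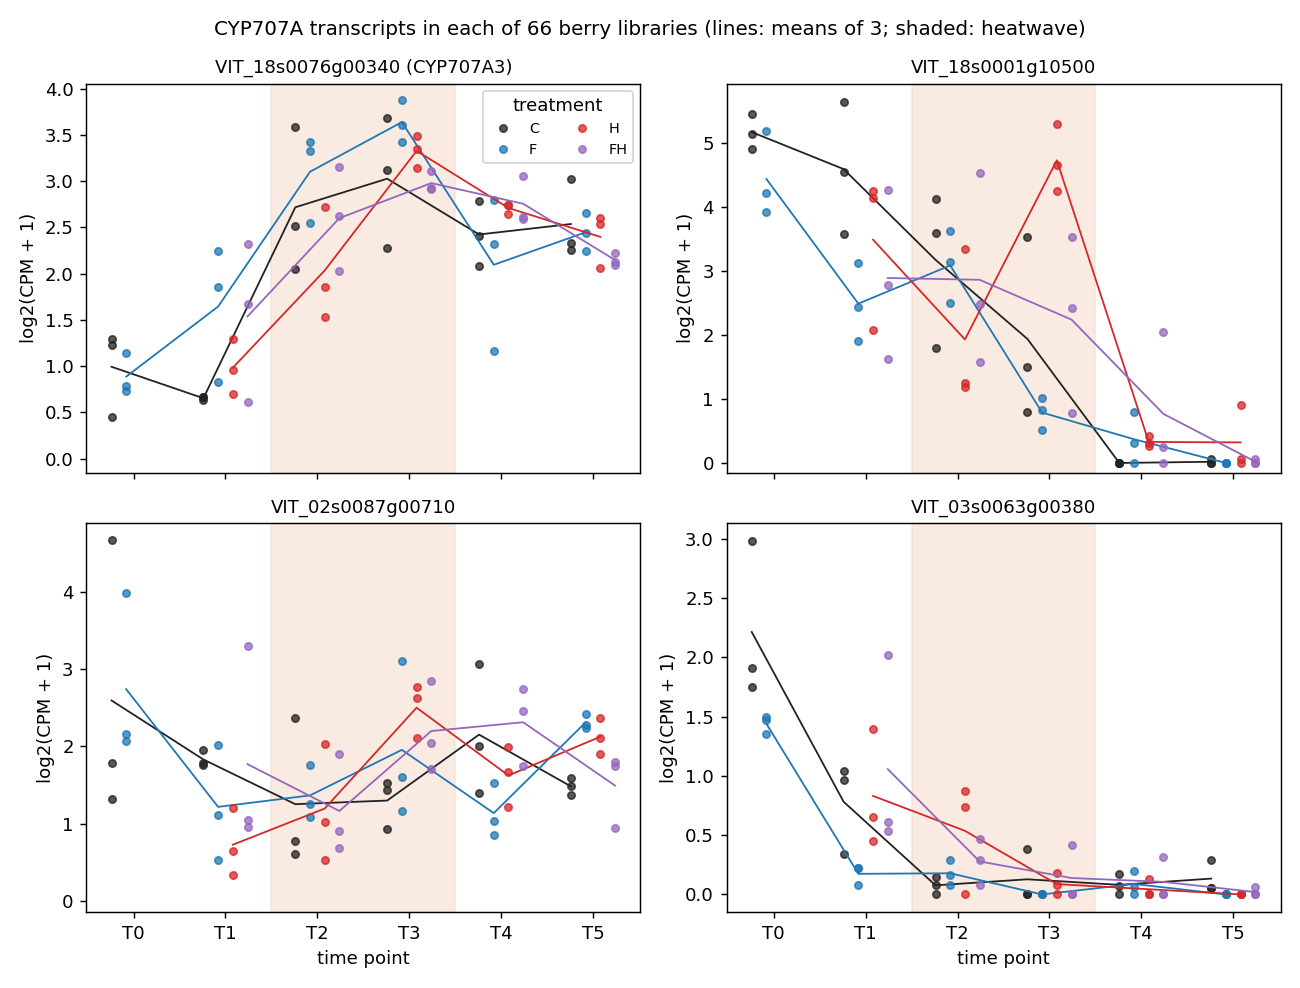
Level of each CYP707A gene as log2(CPM + 1) in each of the 66 libraries, by time point and treatment, with lines through the means of 3 libraries and the heatwave shaded. VIT_18s0001g10500 falls from 14.1 to 43.2 CPM at T0 to at most 0.865 CPM at T5, with the 3 H libraries at T3 set apart at 18.0 to 38.3 CPM, while CYP707A3 has its highest median, 8.53 CPM, at T3.

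VIT_18s0076g00340 (CYP707A3) was named by the study for its time course, so its levels over time are given without a test. At T0 its level was 1.46, 1.35 and 0.365 CPM in C and 0.658, 1.21 and 0.724 CPM in F. At T1 it was 0.553, 0.582 and 0.582 CPM in C, 2.62, 3.74 and 0.777 CPM in F, 0.936, 0.623 and 1.46 CPM in H, and 4.002, 0.530 and 2.19 CPM in FH. All 3 F and all 3 H libraries lay above the 3 C libraries, while FH overlapped with every other group.

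At T2, CYP707A3 stood at 3.15, 10.96 and 4.72 CPM in C, 9.74, 9.05 and 4.85 CPM in F, 5.59, 1.89 and 2.61 CPM in H, and 5.16, 7.86 and 3.08 CPM in FH. At T3, the highest time point, it stood at 3.85, 7.70 and 11.8 CPM in C, 9.74, 13.7 and 11.2 CPM in F, 10.2, 7.85 and 9.20 CPM in H, and 6.57, 6.51 and 7.61 CPM in FH. The lowest T3 library was thus above all 18 libraries of T0 and T1 except 1 of FH at T1, which had 4.002 CPM. At T4 the 12 libraries lay between 1.24 and 7.34 CPM, with a median of 5.18 CPM, and at T5 between 3.17 and 7.10 CPM, with a median of 3.91 CPM, so at harvest the level was still above the T0 range of 0.365 to 1.46 CPM.

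Among the 22 group means of CYP707A3, F at T3 was the highest with 11.6 ± 2.03 CPM (SD, n = 3), followed by H at T3 with 9.08 ± 1.17 CPM, F at T2 with 7.88 ± 2.65 CPM, C at T3 with 7.78 ± 3.98 CPM and FH at T3 with 6.90 ± 0.616 CPM. The lowest was C at T1 with 0.573 ± 0.0170 CPM. Of the 21 neighbouring pairs in this order, 1 was separate in all libraries, F at T0 over C at T1, and 1 differed by more than the combined SD, F over H at T3. The levels therefore form a continuous order in which most neighbours do not differ beyond their spread.

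Whether spring flooding left a mark on the berry was asked by comparing F with C at each time point. A gene is called changed here where the edgeR quasi-likelihood test gave a Benjamini-Hochberg adjusted p, over all 19625 rows, under 0.05 with a change of 1.5-fold or more. CYP707A3 was higher in F than in C at T1 (log2 fold change of 2.04 ± 0.58 SE, adjusted p = 0.011, edgeR), and this was the only call among 24 tests of the 4 genes in F over C. At T1 the same contrast called 14.6% of all rows, 6.16% of them upwards, so a call in this contrast was common. With both summer treatments averaged, F and FH were higher than C and H at T1 by 1.60 ± 0.40 on the log2 scale (adjusted p = 0.0025, edgeR), where 16% of all rows were called, 6.18% upwards. From T2 to T5 that average gave 0 calls for these genes, on backgrounds of 0%, 0.397%, 0.0815% and 0%. In FH over H alone the value at T1 was 1.16 ± 0.55 (adjusted p = 0.26, edgeR).

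Leaving out each of the 6 libraries in turn gave log2 values of 1.56 to 2.46 for the flooding difference in F over C at T1. It lost its call without library 1 of C (2.02, adjusted p = 0.052, edgeR) or without library 2 of F (1.56, adjusted p = 0.1, edgeR), and with only the T1 libraries in the model (2.03, adjusted p = 0.065, edgeR), whereas the difference averaged over both summer treatments kept its call without any of the 12 libraries. A gene linked to ripening and the first component also differed at T1. ACO1 (VIT_11s0016g02380), an ACC oxidase that makes ethylene and rises in ripening berries, had 0.251, 5.19 and 1.64 CPM in C and 43.5, 51.4 and 15.6 CPM in F, a log2 difference of 3.97 ± 1.12. The study named ACO1 for higher values at T1 in F and FH of these samples. Its difference is therefore given without a test and is no independent evidence. The first component score was -67.7, -58.4 and -55.4 in C and -15.0, -1.29 and -18.5 in F, and -59, -62.3 and -46.6 in H against -24.1, -50.3 and -16.9 in FH. Library 2 of FH, with the lowest CYP707A3 level of its group, also had the lowest score and 0.265 CPM of ACO1. The part of ripening stage in the CYP707A3 difference was not tested.

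From T2 on, flooding history gave no call for any of the 4 genes in F over C, and that contrast called 0% of all rows at each of these time points, after 0.0102% at T0. In F over C, 4 of the 24 tests of these genes had an unadjusted p under 0.05, and DESeq2 called 1. FH over H gave 0 calls in 20 tests, with 3 at an unadjusted p under 0.05 and 0 by DESeq2, on backgrounds of 0.698%, 0%, 1.3%, 0.0611% and 0% of all rows from T1 to T5.

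**Figure D2:**
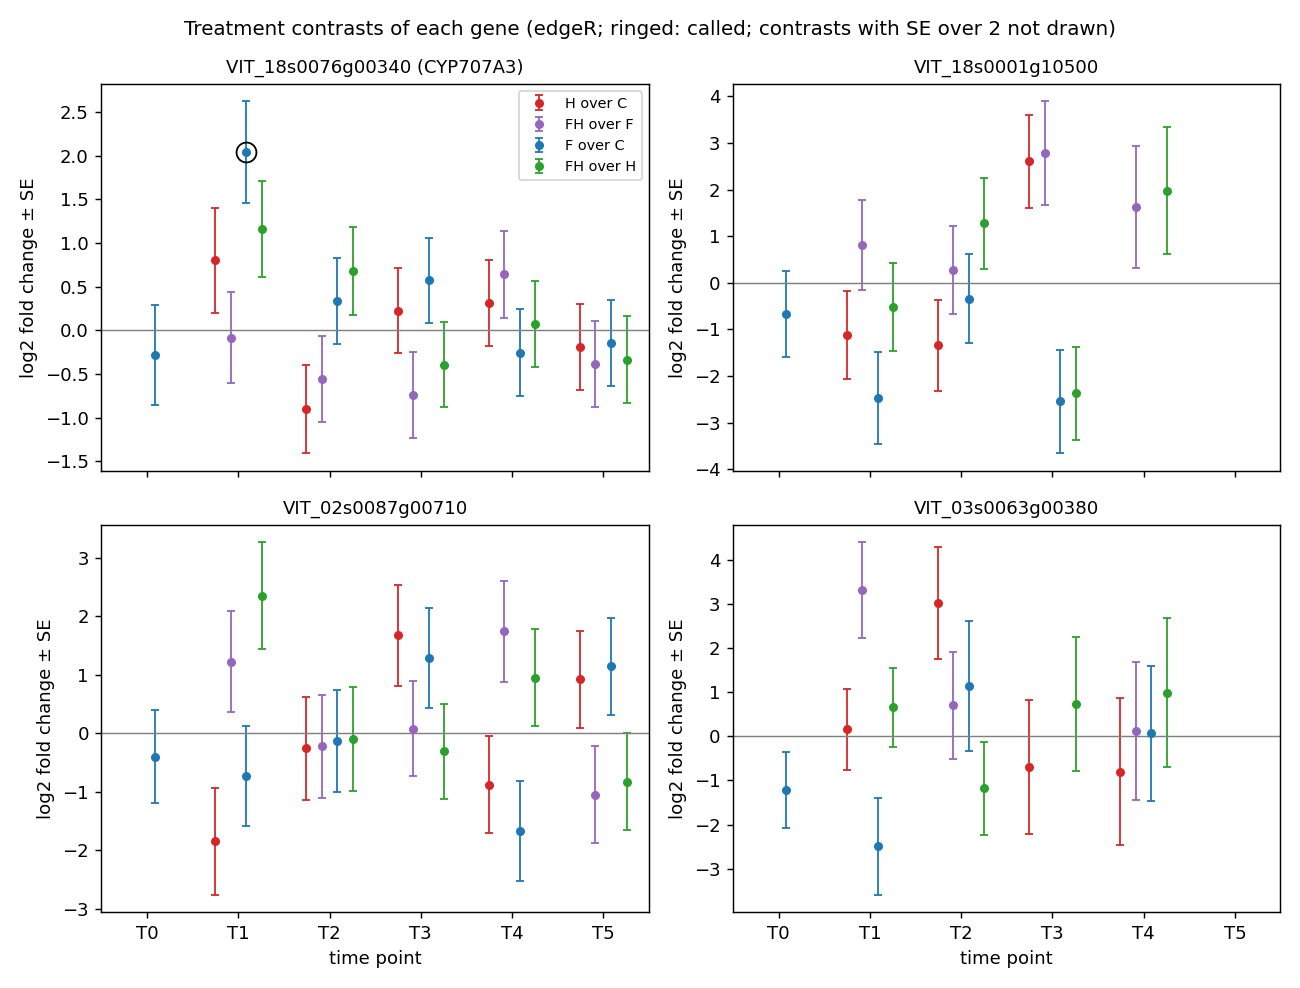
Log2 fold change with its SE for H over C, FH over F, F over C and FH over H at each time point, from edgeR over all 66 libraries, with called values ringed and contrasts with an SE over 2 left out. The ringed value is CYP707A3 in F over C at T1 (2.04), and at T3 VIT_18s0001g10500 is at 2.61 in H over C and 2.78 in FH over F.

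Drought and heat did not give a call for CYP707A3. H over C was 0.80 ± 0.60 on the log2 scale at T1, before the heat (adjusted p = 0.73, edgeR), and -0.91 ± 0.50 at T2 (adjusted p = 0.21, edgeR), and with both flooding histories averaged the T2 value was -0.73 ± 0.35 (adjusted p = 0.11, edgeR), with groups that overlapped. Without library 1 of H the latter was called (-1.01, adjusted p = 0.033, edgeR). The 95% interval of the T2 value in H over C ran from -1.92 to 0.11. At T3, FH over F was -0.74 ± 0.49 (adjusted p = 0.44, edgeR), the 3 FH libraries (6.51 to 7.61 CPM) lying below the 3 F libraries (9.74 to 13.7 CPM), while H and C overlapped.

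VIT_18s0001g10500 fell over ripening in every treatment. Its level at T0 was 34.4, 29.1 and 43.2 CPM in C and 35.5, 14.1 and 17.6 CPM in F. At T1 it was 49.2, 22.6 and 10.96 CPM in C, 4.43, 2.76 and 7.71 CPM in F, 16.7, 3.22 and 18.0 CPM in H, and 5.89, 18.3 and 2.08 CPM in FH. The F libraries were all below the C libraries at T1, and the other groups overlapped.

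At T2, VIT_18s0001g10500 stood at 11.2, 2.48 and 16.5 CPM in C, 7.82, 11.3 and 4.67 CPM in F, 1.28, 9.21 and 1.38 CPM in H, and 22.2, 4.58 and 1.98 CPM in FH, with all groups overlapping. At T3 it stood at 10.5, 0.728 and 1.83 CPM in C, 0.431, 1.03 and 0.777 CPM in F, 24.2, 18.0 and 38.3 CPM in H, and 10.5, 4.36 and 0.712 CPM in FH. All 3 H libraries at T3 lay above every other library of that time point.

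At T4 VIT_18s0001g10500 had 0 counts in all 3 C libraries, and 0, 0.733 and 0.248 CPM in F, 0.337, 0.197 and 0.239 CPM in H, and 0, 3.14 and 0.191 CPM in FH. The value of 3.14 CPM belongs to library 2 of FH, which stood apart over all genes and had a first component score of 3.85 against 34.3 and 35.1 in its replicates. At T5 the level was 0.0394, 0 and 0 CPM in C, 0 in all 3 F libraries, 0, 0.0460 and 0.865 CPM in H, and 0, 0.0432 and 0 CPM in FH, so 8 of 12 harvest libraries had no count. The library of H at 0.865 CPM had the lowest first component score of the harvest libraries, 22.4. That library held 17 of the 18 counts in H, against 1 in C, a ratio of 20.3 (95% counting interval of 3.21 to 846).

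The summer stresses were compared within each flooding history and then averaged over both. VIT_18s0001g10500 was higher at T3 in H and FH than in C and F by 2.69 ± 0.75 on the log2 scale (adjusted p = 0.019, edgeR), the only call among 20 tests of the 4 genes in that contrast, which called 5.29% of all rows at T3, 2.89% upwards, and 1.36%, 18.1%, 0.81% and 16.4% at T1, T2, T4 and T5. The means were 26.8 ± 10.4 CPM in H, 5.20 ± 4.96 CPM in FH, 4.37 ± 5.38 CPM in C and 0.744 ± 0.299 CPM in F (SD, n = 3), and the libraries of the averaged sides overlapped through FH and C. Taken singly, H over C was 2.61 ± 0.999 (adjusted p = 0.22, edgeR), with separate groups, and FH over F was 2.78 ± 1.12 (adjusted p = 0.16, edgeR), with groups that overlapped, so neither was called. Over the 20 tests in H over C, 0 were called, with 3 at an unadjusted p under 0.05 and 0 called by DESeq2, where 0.408%, 13.6%, 0.168%, 0.428% and 12.3% of all rows were called from T1 to T5. Over the 20 tests in FH over F, 0 were called, with 3 at an unadjusted p under 0.05 and 0 called by DESeq2, where 0.0051%, 2.84%, 2.91%, 0.194% and 13.5% of all rows were called.

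The averaged T3 difference of VIT_18s0001g10500 was close to the threshold. It ranged from 2.16 to 3.59 on the log2 scale when each of the 12 libraries was left out, and lost its call without library 2 or 3 of C, library 1 of FH or library 3 of F (adjusted p up to 0.083, edgeR). With only the T3 libraries in the model the adjusted p was 0.056. Whether the difference depended on flooding history was asked by the contrast of both differences, which called 0 of 20 tests, with 3 at an unadjusted p under 0.05 and 0 by DESeq2, where 0% of all rows were called from T1 to T3, 0.0051% at T4 and 0.52% at T5.

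The first component scores of the T3 libraries were 10.1, 9.75 and 2.89 in H, -15.8, 24.2 and 15.9 in C, 30.0, 19.6 and 20.5 in F, and 19.0, 36.2 and 34.6 in FH. Library 1 of C, with the highest level of its group (10.5 CPM), had the lowest score of all 12, and library 1 of FH, also at 10.5 CPM, had the lowest score of its group. HSP101 (VIT_17s0000g07190), a chaperone induced by heat, was at 420, 614 and 1152 CPM in H and 527, 58.6 and 157 CPM in C at T3, a log2 difference of 1.56 ± 1.01 (adjusted p = 0.49, edgeR). In FH it was at 1817, 418 and 405 CPM and in F at 997, 464 and 19.3 CPM, with groups that overlapped. In C at T1, without the heatwave, it was at 1021, 1288 and 1160 CPM, so a high level was not limited to the heatwave. The parts of ripening stage and of heat in the T3 difference were not tested.

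**Figure D3:**
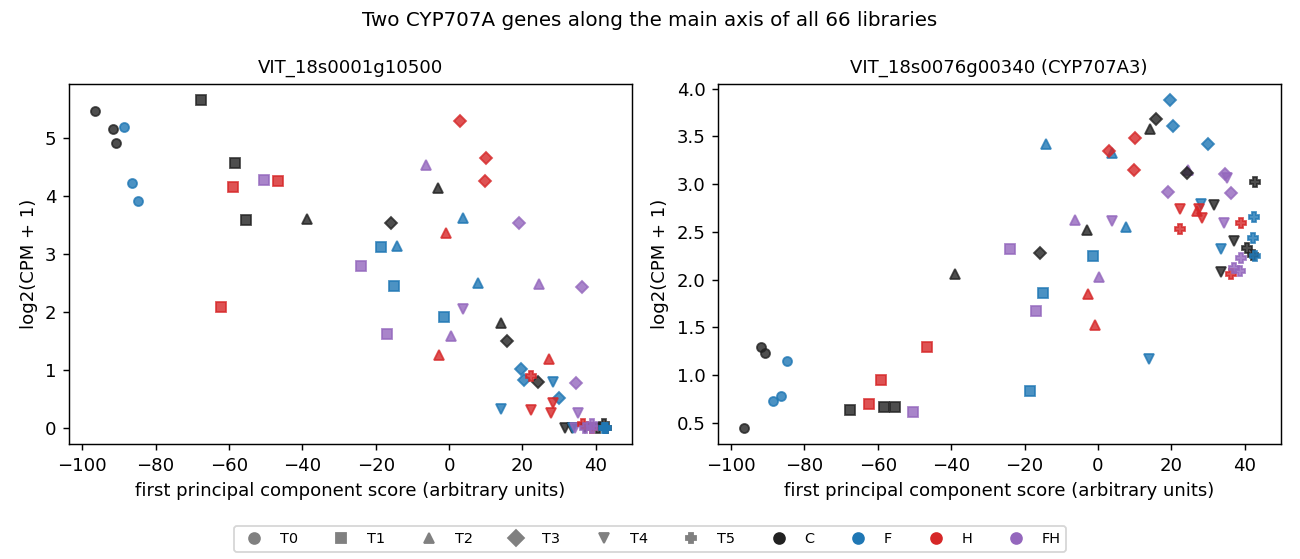
VIT_18s0001g10500 and CYP707A3 as log2(CPM + 1) against the first principal component score, 1 point for each of the 66 libraries, with time points by symbol and treatments by colour. VIT_18s0001g10500 goes down along the component, with the 3 H libraries of T3 (scores of 2.89 to 10.1) above the other libraries within that range of scores. Library 1 of FH at T2, at a score of -6.21, has 22.2 CPM, within the range of those 3 libraries. CYP707A3 goes up to scores near 20 and then down.

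Within H, VIT_18s0001g10500 was higher at T3 than at T2 by 2.75 ± 1.01 on the log2 scale, with separate libraries but an adjusted p of 0.062 in edgeR, where 9.61% of all rows were called, and it was called without library 2 of T2 (4.32, adjusted p = 0.049, edgeR). Without that library T2 over T1 in H was also called (-3.24, adjusted p = 0.046, edgeR), against -1.67 ± 0.98 with it (adjusted p = 0.2, edgeR). From T2 to T3 in F the log2 value was -3.40 ± 1.12 (adjusted p = 0.3, edgeR), with separate libraries. FH was below H at T3 by 2.37 on the log2 scale without a call (SE 0.99, adjusted p = 0.17, edgeR), and the 3 FH libraries were all below the 3 H libraries. At T1, F over C was -2.47 ± 0.99 (adjusted p = 0.071, edgeR), the opposite sign to CYP707A3 in that contrast. Averaged over both summer treatments, the flooding value of VIT_18s0001g10500 was -1.5 ± 0.68 at T1 (adjusted p = 0.093, edgeR) and -2.46 ± 0.74 at T3 (adjusted p = 0.081, edgeR), the latter called without library 2 of C or library 1 of FH (adjusted p = 0.042 and 0.036, edgeR), and the former without library 2 of FH (adjusted p = 0.032, edgeR).

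The fall of VIT_18s0001g10500 passed the test between T3 and T4 in C and H. In C it went from 251 counts over 3 libraries to 0, which is a fall of at least 31.4-fold against a floor of 3 counts per library (0.139 CPM; adjusted p = 0.0031, edgeR), in a step in which 14.8% of all rows were called, 8.76% downwards. In H it fell by 6.67 on the log2 scale (SE 1.31, adjusted p = 0.00054, edgeR), where 16.6% of all rows were called, 8.96% downwards. In FH the log2 value of -2.31 was not called (adjusted p = 0.28, edgeR), and it was called without library 2 of T4 (log2 value of -5.72, adjusted p = 0.03, edgeR). Library 1 of C at T3 held 208 of the 251 counts, and without it the fall was at least 9.2-fold and lost its call (adjusted p = 0.069, edgeR). From T4 to T5 in FH the counts went from 55, of which the outlying library 2 held 51, to 1 without a call (adjusted p = 0.072, edgeR). DESeq2 called this step (-6.08, adjusted p = 0.0049), and edgeR did without library 1 or 3 of T4 (adjusted p = 0.035 and 0.036).

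Over longer spans VIT_18s0001g10500 was lower in all 8 comparisons made, T5 over T0, T5 over T1 and T3 over T0 in the treatments that have them. From T0 to T5 the ratio in C was 2570, with a 95% counting interval of 462 to 102000 because the 3 harvest libraries held 1 count, and in F the fall was at least 166-fold. From T1 to T5 the ratio was 2030 in C (364 to 80200) and 595 in FH (106 to 23600), the fall in F was at least 36.9-fold, and H fell by 5.43 on the log2 scale (SE 1.26, adjusted p = 0.00048, edgeR). These intervals and floors cover counting error only. The contrast of T5 over T0 called 56.6% of all rows in C and 53.8% in F, with 31.5% and 30.6% downwards, and T5 over T1 called 52.2%, 38.5%, 42.9% and 38.7% in C, F, H and FH, with 29.6%, 21.7%, 24.9% and 22.4% downwards. From T0 to T3 it fell by 3.01 on the log2 scale in C (SE 1.01, adjusted p = 0.013, edgeR) and it fell by 4.89 in F (SE 1.16, adjusted p = 0.00048, edgeR), in contrasts that called 40.3% and 45.2% of all rows, 23.3% and 25.4% downwards. The value in C lost its call without library 2 or 3 of T3 (adjusted p = 0.073 and 0.065, edgeR).

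In the order of its 22 group means, VIT_18s0001g10500 was highest in C at T0 with 35.6 ± 7.09 CPM (SD, n = 3), then in C at T1 with 27.6 ± 19.6 CPM and H at T3 with 26.8 ± 10.4 CPM, and F at T0 came next with 22.4 ± 11.5 CPM. H at T3 thus ranked between groups of T1 and T0. Only 1 of the 21 neighbouring pairs was separate in all libraries, H at T4 over FH at T5.

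VIT_03s0063g00380 was close to 0 from T2 on. Its level at T0 was 2.76, 2.35 and 6.89 CPM in C and 1.77, 1.82 and 1.55 CPM in F, with all C libraries above all F libraries. At T1 it was 1.06, 0.953 and 0.265 CPM in C, 0.164, 0.0576 and 0.166 CPM in F, 0.572, 0.363 and 1.62 CPM in H, and 3.06, 0.530 and 0.450 CPM in FH. The F libraries were below those of every other T1 group. From T2 on no library exceeded 0.832 CPM, and 24 of the 48 libraries had a count of 0.

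The fall from T0 to T1 was called in F, where VIT_03s0063g00380 fell by 3.66 on the log2 scale (SE 1.08, adjusted p = 0.0051, edgeR) in a step that called 39.6% of all rows, 22.6% of them downwards. In C the same step was -2.39 ± 0.91 (adjusted p = 0.054, edgeR). It was called with only the T0 and T1 libraries in the model (-2.34, adjusted p = 0.025, edgeR). The next step in C, from T1 to T2, went from 44 counts to 3, a ratio of 13.2 (95% counting interval of 4.25 to 66.7). It was called (adjusted p = 0.031, edgeR) on a background of 19.2%, 9.86% downwards. That call was lost without library 1 or 2 of T1 or library 2 or 3 of T2 (adjusted p up to 0.13, edgeR). Over the 8 longer spans the gene was lower in 7, the exception being T5 over T1 in F (adjusted p = 0.07, edgeR), where T1 was already at 7 counts in all. T5 over T1 in C lost its call without library 1 or 2 of either time point (adjusted p up to 0.083, edgeR). The gene reached 0.5 CPM in 14 libraries, and from T3 on its highest library had 0.334 CPM. It thus passed the filter only through libraries of T0 to T2, and its falls to T3 and T5 are partly set by that filter. From T0 to T5 it fell by 5.26 on the log2 scale in C (SE 1.10, adjusted p = 7e-05, edgeR) and at least 12.7-fold in F.

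At T1 the groups of VIT_03s0063g00380 differed without a call. FH over F was 3.31 ± 1.09 on the log2 scale with separate libraries (adjusted p = 0.23, edgeR), and F over C was -2.49 ± 1.10 with separate libraries (adjusted p = 0.1, edgeR). Averaged over both flooding histories the summer value at T1, under drought alone, was 1.73 ± 0.71 (adjusted p = 0.19, edgeR). At T2 the H libraries had 28 counts against 3 in C, a ratio of 9.27 (95% counting interval of 2.86 to 47.7, adjusted p = 0.092, edgeR), with 1 H library at 0 and overlapping groups, and this difference was called without library 1 of H (adjusted p = 0.038, edgeR).

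VIT_02s0087g00710 did not follow the others. At T0 its level was 24.5, 1.502 and 2.45 CPM in C and 14.9, 3.20 and 3.46 CPM in F, a single high library in each group. From T1 to T5 the medians over 12 libraries were 1.22, 1.07, 2.69, 2.25 and 2.61 CPM, and the highest library of any later group was 8.88 CPM, in FH at T1. None of the 21 neighbouring pairs of group means was separate.

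Of the time contrasts of VIT_02s0087g00710, 4 were called. It fell from T0 to T1 in F by 2.21 on the log2 scale (SE 0.86, adjusted p = 0.031, edgeR), and in C it fell by 2.67 to T3 (SE 0.87, adjusted p = 0.01, edgeR) and by 2.40 to T5 (SE 0.85, adjusted p = 0.012, edgeR), with groups that overlapped in C. Without the high library of T0 these values in C were -0.40 (adjusted p = 0.74, edgeR) and -0.14 (adjusted p = 0.9, edgeR), and the value in F was -1.1 (adjusted p = 0.34, edgeR). The call in F was also lost without library 1 or 2 of T1 (adjusted p = 0.13 and 0.098, edgeR). In H it was higher at T5 than at T1 by 2.26 ± 0.91 (adjusted p = 0.035, edgeR), 4.14, 3.31 and 2.75 CPM against 0.260, 1.30 and 0.560 CPM. That contrast called 42.9% of all rows, 18.1% upwards, and the call was lost without library 1 or 3 of T1 or library 1 or 2 of T5 (adjusted p up to 0.13, edgeR), and under house-keeping gene scaling (1.67, adjusted p = 0.1, edgeR), which moved the median of all rows by -0.59 in this contrast.

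The treatment contrasts of VIT_02s0087g00710 gave no call. Its libraries separated in several of them, which with 3 libraries a side is weak evidence, and the share of all rows that separate was not computed. At T1 the C libraries had 2.87, 2.44 and 2.38 CPM and the H libraries lay below them, a log2 difference of -1.85 ± 0.91 (adjusted p = 0.48, edgeR). At T3 the order was the other way round, with 5.84, 3.30 and 5.17 CPM in H and 0.912, 1.87 and 1.70 CPM in C, a log2 difference of 1.67 ± 0.86 (adjusted p = 0.37, edgeR). At T5 it was 2.01, 1.79 and 1.59 CPM in C, 4.37, 3.83 and 3.72 CPM in F, 4.14, 3.31 and 2.75 CPM in H, and 0.921, 2.46 and 2.34 CPM in FH. H lay above C and FH below F at T5, with log2 values of 0.92 ± 0.83 (adjusted p = 0.49, edgeR) and -1.05 ± 0.83 (adjusted p = 0.42, edgeR).

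Of 54 tests of the other 3 genes between consecutive time points 5 were called (9.26%), all downwards, against a mean of 9.35% of all rows over these steps, so the share was that of the background. From T0 on, the consecutive steps called 16.5%, 19.2%, 0%, 14.8% and 3.89% of all rows in C and 39.6%, 2.67%, 0.0153%, 1.29% and 2.04% in F, and from T1 on 24.2%, 9.61%, 16.6% and 0.346% in H and 6.18%, 0.785%, 2.44% and 8.1% in FH. Of 24 tests over the longer spans 18 were called (75%), 17 downwards and 1 upwards, against a mean of 46% of all rows, with 38.5% to 56.6% in single contrasts. These spans reuse the same libraries of 3 genes, so the 24 tests are not independent. VIT_03s0063g00380, which passed the filter through libraries of T0 to T2, gave 7 of the 18 calls. CYP707A3 stands outside these counts. Of the 32 tests of whether the summer effect at T2 to T5 differed from that at T1, 0 were called, with 4 at an unadjusted p under 0.05 and 0 by DESeq2, where 1.48%, 0.0764%, 0% and 10.4% of all rows were called for H over C and 2.01%, 0.606%, 0% and 11.6% for FH over F.

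The NCED genes of abscisic acid synthesis were described on the same contrasts, with 4 of 4 tested. The study named these 4 genes for their levels in these same samples. Their tests here and below are therefore no independent evidence of a direction. At T1, F over C was higher for NCED4 by 1.79 ± 0.59 (adjusted p = 0.028, edgeR) and for NCED5 by 2.23 ± 0.74 (adjusted p = 0.029, edgeR) on the log2 scale, so 2 of the 4 NCED genes and 1 of the 4 CYP707A genes analysed here were higher in this contrast, where 6.16% of all rows were. The median log2 fold change was 1.41 over the NCED genes, -1.60 over the CYP707A genes and -0.05 over all rows. From T0 to T3, 3 of 4 NCED genes were higher in C and 4 of 4 in F, with medians of 2.45 and 2.83, in contrasts that called 17.1% and 19.9% of all rows upwards. At T0 NCED6 had only 1, 2 and 1 counts in C and 6, 4 and 0 in F. VIT_18s0001g10500 and VIT_03s0063g00380 were lower in both treatments, and CYP707A3, described without a test, had 0.365 to 1.46 CPM at T0 and 3.85 to 13.7 CPM in C and F at T3.

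During the heatwave NCED3 was lower in H and FH than in C and F at T2 by 1.79 on the log2 scale (SE 0.65, adjusted p = 0.032, edgeR), 38.2 CPM against 140 CPM on average, and no CYP707A gene was called there, where 18.1% of all rows were. At T3 no NCED gene was called in the averaged summer contrast, with a median of 1.13, and none in H over C, where NCED3 had 83.6, 74.2 and 358 CPM in H and 59, 23.9 and 246 CPM in C. NCED6 had the largest of these T3 values, 1.52 ± 0.51 in the averaged contrast (adjusted p = 0.055, edgeR). Of 10 further genes that the study places in an abscisic acid subnetwork, 7 were tested and 3 were higher in the averaged summer contrast at T3, with a median of 1.59. That list was drawn up by the study from these very samples and is therefore no independent evidence of a direction.

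**Figure D4:**
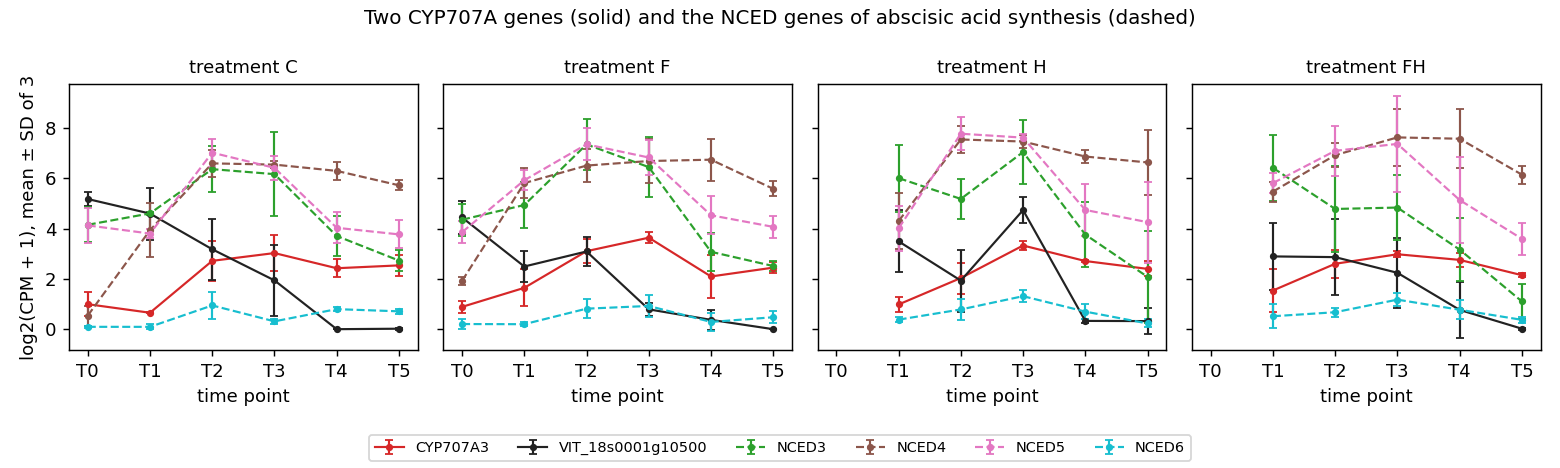
CYP707A3 and VIT_18s0001g10500 (solid) with NCED3 to NCED6 (dashed) as mean log2(CPM + 1) with SD over 3 libraries, by time point, in a panel for each treatment. In C and F, NCED4 and NCED5 are higher at T2 than at T0 and VIT_18s0001g10500 is lower, while in H its line peaks at T3, where its 3 libraries are at 18.0 to 38.3 CPM.

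Over the 22 group means of log2(CPM + 1), CYP707A3 correlated with ACO1 at Pearson's r = 0.85, and within groups, as deviations of 66 libraries from their group means, at r = 0.64. VIT_18s0001g10500 correlated with the first component at r = -0.85 over the group means and -0.61 as deviations, with HSP101 at 0.56 and 0.52, and with NCED3 at 0.61 and 0.29. With the other NCED genes VIT_18s0001g10500 correlated over the group means at -0.54 (NCED4), 0.25 (NCED5) and -0.10 (NCED6), and CYP707A3 correlated at 0.18 with NCED3, 0.78 with NCED4, 0.58 with NCED5 and 0.75 with NCED6, of which NCED6 alone kept a value over 0.2 as deviations (0.51). CYP707A3 and VIT_18s0001g10500 correlated with each other at -0.45 and -0.30, and VIT_18s0001g10500 with VIT_03s0063g00380 at 0.68 and 0.41. These points share libraries, the ripening course and the scaling, so the coefficients are descriptions.

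The genes whose pattern was most like each member were taken as the 2 tested rows with the highest Pearson correlation over the 22 group means, among rows reaching a group mean of 5 CPM. For CYP707A3 they were VIT_17s0000g09490 (r = 0.95) and VIT_08s0007g04230 (r = 0.94), highest in H and in F at T3. For VIT_18s0001g10500 they were VIT_14s0036g01060 (r = 0.96), highest in C at T0, and VIT_08s0040g02210 (r = 0.96), highest in H at T3 with 15.2 CPM. For VIT_03s0063g00380 they were VIT_03s0017g01300 (r = 0.97) and VIT_13s0019g02640 (r = 0.95), both highest in C at T0. For VIT_02s0087g00710 the highest values were lower, 0.74 for VIT_15s0048g02140 and 0.73 for VIT_18s0001g08030, both also highest in C at T0. Over the 66 libraries these 2 values were 0.29 and 0.57. The mean of VIT_02s0087g00710 in C at T0 rests on 1 library at 24.5 CPM.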

How the data were processed

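The deposited table holds raw gene counts of 66 berry libraries, which the authors made from stranded single-end reads of poly(A) RNA. Alignment was by TopHat. The submitters' processing notes also name Trimmomatic 0.39 and featureCounts, whereas the study's methods describe untrimmed reads and Bedtools. The files carry VIT_ gene IDs, and no genome build was used here. Multi-mapped reads left out at counting could lower genes with near copies, which was not checked for this family. Replicates were not pooled, and 300 rows share 149 IDs, none of them a CYP707A gene.

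Counts were fitted with edgeR 4.0.16 in R 4.3.3 (glmQLFit with robust estimation, glmQLFTest) with TMM scaling and 1 mean for each of 22 groups. SEs were derived from the F statistic and intervals are at 95%. Rows had to reach 0.5 CPM in 3 libraries. Pseudocounts were 1 for likeness and 4 for the principal component. DESeq2 1.42.0 was an alternative, and alternatives otherwise covered scaling, the filter, the libraries in the model, a replicate block, summed rows and each library left out, for which the dispersion trend of all 66 libraries was kept. Genes named are the 4 members, the 4 NCED genes, HSP101, ACO1 and the 2 genes most like each member. The members and lists were chosen with earlier results of these data known. None of the 29591 entries of the RefSeq gene table of assembly ASM3070453v1 held a VIT_ ID, so no sequence, position or further name is given. No tissue or cell type markers were matched to these IDs, and the label of berry was not checked against any.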

Additional observations from a re-analysis of the deposited data

Results flagged for a closer look

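VIT_02s0087g00710 was picked out because its libraries separated fully in opposite directions. In H over C, every H library lay below every C library at T1 and above every C library at T3 and at T5. The difference of H over C between T3 and T1 was 3.52 ± 1.25 on the log2 scale (adjusted p = 0.27, edgeR), and that between T5 and T1 was 2.77 ± 1.23 (adjusted p = 0.14, edgeR). At T5, the H libraries lay above C and the FH libraries below F, and FH over F minus H over C was -1.97 ± 1.18 (adjusted p = 0.51, edgeR). None of these differences passed the threshold over all rows. The gene was picked for this separation, so the separation is a description and no test.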

How the results depend on the processing

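A set of 61 log2 fold changes of CYP707A genes, chosen for the text from all those tested, was recomputed under each alternative. None of them changed sign, 808 values stayed on the same side of the threshold, 34 lost a call and 16 gained one, and tests outside the set are given only by the counts of calls. DESeq2 called 2 tests for summer stress averaged over both flooding histories and 2 for spring flooding averaged over both summer treatments, each time adding VIT_18s0001g10500 at T4, 7 tests between consecutive time points against 5, adding VIT_18s0001g10500 from T4 to T5 in F and FH, and 19 over longer spans against 18. House-keeping gene scaling called 2 tests in F over C and 2 for averaged spring flooding, in both adding VIT_18s0001g10500 as lower at T1, and it moved the median of all rows by -0.70 to 0.51 on the log2 scale, by -0.37 in F over C at T1. With the model restricted to libraries of the compared time points, F over C gave 0 calls, averaged summer stress 0 and FH over F 1 (VIT_02s0087g00710 at T5, -1.09, adjusted p = 0.028, edgeR). Consecutive time points then gave 6 calls against 5. From T0 to T1 this setting gained VIT_03s0063g00380 in C and VIT_18s0001g10500 in F, both lower, and lost VIT_02s0087g00710 in F. Leaving out each library gave 0 to 1 calls in H over C, 0 to 1 in F over C, 0 to 2 for averaged summer stress and 1 to 2 for averaged spring flooding. The cause of these shifts was not tested.

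The replicate numbers did not pair the libraries: 93 same-numbered pairs within a time point had a median correlation of deviations of -0.007, with 29 over 0.1. With a replicate block the counts were 1 in F over C, 1 for averaged summer stress, 1 for averaged spring flooding, 4 between consecutive time points (losing VIT_03s0063g00380 in F from T0 to T1 and in C from T1 to T2, gaining VIT_02s0087g00710 in C from T0 to T1) and 19 over the longer spans (losing VIT_18s0001g10500 and VIT_03s0063g00380 in C from T0 to T3, gaining VIT_02s0087g00710 in F in all of its spans), and 0 in H over C, FH over F, FH over H and their difference. Of the genes most like each member, the pair of VIT_18s0001g10500 shared 0 with that at a pseudocount of 4 or over 66 libraries. Counts of 3 or fewer over a group, frequent at harvest for VIT_18s0001g10500 and VIT_03s0063g00380, leave wide counting intervals.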
